A study of Mus musculus with 2 samples.

Results

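Transcripts of 60 genes of the Wnt pathway were followed in newborn mouse lens with and without the forkhead transcription factor Foxp1. The set is a list of gene names, with no threshold on a measured value. It comprised 18 Wnt ligands, 2 genes of ligand secretion, 12 receptors and co-receptors, 5 genes for R-spondin receptors and Frizzled ubiquitin ligases, 10 antagonists, 8 cytoplasmic transducers or feedback genes and 5 nuclear factors. All 60 were matched to at least 1 probe through RefSeq transcript accessions, out of 20655 genes named on the array, and together they had 75 probes.

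Total RNA from lens at postnatal day 0 was hybridised to Agilent 1-colour arrays, with 1 array for each genotype. The control is labelled wild-type, and the design text calls the controls litter mates. The other array is labelled as a lens-specific Foxp1 knockout. Both are on a mixed C57BL/6 background, and 1 treatment text, shared by both samples, gives the alleles, Foxp1-flox/flox and Pax6-L-Cre, so the labels do not settle which of these alleles the control carried. The labels do not describe this Cre line beyond its name, and they do not state how many animals gave the RNA. Both arrays came from 1 slide, so genotype cannot be told apart from position on it. For Foxp1 itself the 3 probes gave log2 differences of -1.84, -1.82 and -1.33, all lower in the knockout.

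Wnt proteins are secreted lipid-modified ligands that bind Frizzled receptors together with the co-receptors Lrp5 and Lrp6. Receptor activation stalls the Axin and Apc complex that destroys beta-catenin, and beta-catenin then acts with Tcf and Lef factors on target genes, several of which encode inhibitors of the same pathway. In the eye, the canonical branch has to be kept low in the ectoderm that forms the lens, whereas Lrp6 is needed later for a normal lens epithelium and the planar polarity branch bears on the alignment of fibre cells.

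Values are processed signals, spot intensities on a linear scale after background subtraction, and log2 differences are knockout minus control after each array was scaled to its 75th percentile. Signals of different genes come from different probes and were not compared with one another. With 1 array per genotype there is no replicate check and no test, and a difference of at least 2-fold was used as a rule of size. The spot SD given beside a difference was estimated on probes with 5 or more spots per array, and it covers spot noise only. In whole lens RNA, fewer cells of a type and less RNA per cell cannot be told apart.

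Dim probes behaved differently on the arrays, so genes with a mean signal under 100 were kept apart. Median processed signals were 50.2 for control and 23.6 for knockout, although the 75th percentiles were 283 and 279.9. The quality rating of the extraction software marked the control array for evaluation and the knockout array as in range. A spike-in RNA with signals of 82.3 and 37.6 read -1.12, whereas those with control signals of 285 and 567 read -0.11 and -0.19. The 5 brightest spike-ins lay between -0.03 and 0.01. Of the 60 Wnt genes, 34 were measured on both arrays with a mean signal of 100 or more, 12 were measured on both arrays below that level, and 14 were not well above background on both. Nearest to the boundary lay Apcdd1 and Tcf7 with mean signals of 103 and 104 on one side, and Znrf3 and Apc with 85.9 and 74.4 on the other.

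**Figure D1:**
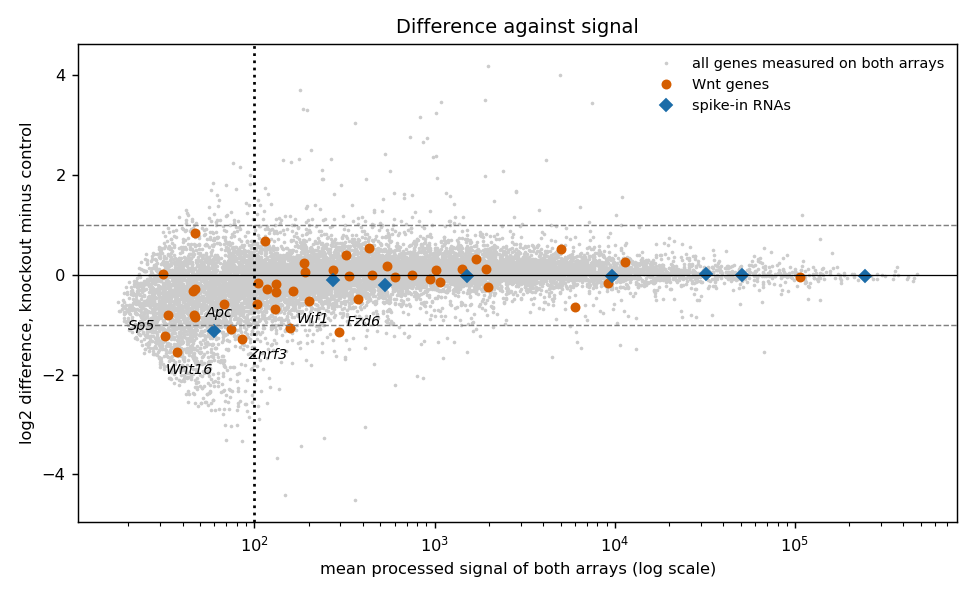
Log2 difference (knockout minus control) against the mean processed signal of both arrays on a log axis, for all genes measured on both arrays (grey), the Wnt genes (orange) and the spike-in RNAs measured on both arrays (blue). Dashed lines mark 2-fold and the dotted line a mean signal of 100; below it the grey points and a spike-in at -1.12 lie low, and Fzd6 and Wif1 are the Wnt genes past 2-fold to the right of it.

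Among the 34 brighter Wnt genes, the knockout lens read at least 2-fold lower for 2, Fzd6 and Wif1, and at least 2-fold higher for 0. These are 5.88% of the set, against 1.19% of all 10711 genes of this signal class on the lower side. On the higher side 1.01% of all genes passed, against 0% of the set. The share on the lower side depended on signal. It was 3.71% of all genes with mean signals of 100 to 200, where Wif1 lay, and 1.05% from 200 to 1000, where Fzd6 lay. For the Wnt genes these shares were 9.09% and 8.33%, 1 gene each. The median difference of the 34 was -0.04, against 0.05 for all genes of the class. Below 0 lay 21 and above it 13, whereas 4273 of all 10711 genes lay below and 6438 above. This sign also depended on signal. Below 0 lay 58.2% of all genes at mean signals of 100 to 200, 42.5% at 200 to 1000 and 31% beyond that. For the Wnt genes these shares were 72.7%, 66.7% and 45.5%. The split of calls depended on the scaling, with 1 higher and 1 lower after quantile normalization or loess, 0 and 0 after normexp correction, and 18 higher and 0 lower under scaling by array medians, which raised every gene by 1.08. Of all genes of the class, 1.25% were higher and 0.859% lower after quantile normalization, and 1.14% and 0.878% after loess. Under array medians 72.1% were higher.

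Promoter sequence was available for 41 of the 60 genes in RefSeq (GRCm38.p6), each running from 250 bases before to 50 bases after a start site. Fzd6, Wnt7b and Znrf3 were among the 19 genes without a sequence, so they were not scanned for motifs. The 4 windows below are shown because they belong to the antagonist that passed 2-fold (Wif1), to the ligand and the antagonist with a single probe that read highest among the brighter genes (Wnt7a and Sfrp2), and to Sp5, a zinc finger factor known as a direct beta-catenin target. Capitals mark forkhead motifs (TGTTTAC or TGTTTAT) and TCF/LEF motifs (CTTTGAT or CTTTGTT) on either strand.
Wif1, chr10:121033754-121034053, plus strand: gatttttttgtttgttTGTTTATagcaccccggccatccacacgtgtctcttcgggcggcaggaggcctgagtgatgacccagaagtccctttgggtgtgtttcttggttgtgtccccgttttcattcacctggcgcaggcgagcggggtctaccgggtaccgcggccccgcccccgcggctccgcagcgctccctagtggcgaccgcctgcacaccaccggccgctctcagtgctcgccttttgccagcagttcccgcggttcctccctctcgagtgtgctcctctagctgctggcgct
Wnt7a, chr6:91411304-91411603, minus strand: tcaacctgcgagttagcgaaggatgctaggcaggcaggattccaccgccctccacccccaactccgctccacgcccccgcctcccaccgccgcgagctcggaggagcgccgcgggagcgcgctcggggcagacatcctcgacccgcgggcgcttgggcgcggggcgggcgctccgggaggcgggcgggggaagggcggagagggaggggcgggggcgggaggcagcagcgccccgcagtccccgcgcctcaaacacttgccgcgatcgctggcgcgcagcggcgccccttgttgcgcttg
Sfrp2, chr3:83766071-83766370, plus strand: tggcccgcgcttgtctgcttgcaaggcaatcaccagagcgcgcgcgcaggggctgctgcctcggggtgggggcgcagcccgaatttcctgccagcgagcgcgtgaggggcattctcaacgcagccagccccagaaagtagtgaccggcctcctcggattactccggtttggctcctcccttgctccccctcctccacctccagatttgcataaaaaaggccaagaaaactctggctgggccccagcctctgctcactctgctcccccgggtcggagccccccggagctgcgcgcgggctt
Sp5, chr2:70474673-70474972, plus strand: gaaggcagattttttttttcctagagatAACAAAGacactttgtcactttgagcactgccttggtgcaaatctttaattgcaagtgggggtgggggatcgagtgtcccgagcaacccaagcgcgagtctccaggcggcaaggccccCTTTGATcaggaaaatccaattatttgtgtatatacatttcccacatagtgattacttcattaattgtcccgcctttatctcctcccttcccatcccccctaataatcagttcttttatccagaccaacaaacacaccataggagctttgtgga

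The Wif1 window held 1 forkhead motif inside a run of similar repeats, the Sp5 window held 2 TCF/LEF motifs, and the Wnt7a and Sfrp2 windows held 0 matches to these letters. A forkhead motif of either spelling was found for 4 of the 41 genes, Lef1, Tcf7, Tcf7l2 and Wif1, and in 7.97% of all 32851 promoter windows. A TCF/LEF motif was found for 7 of the 41, Dkk1, Fzd7, Sp5, Tcf7l2, Wnt11, Wnt3 and Wnt5b, and in 9.33% of all windows. For both families a gene counted if any of its windows matched, whereas the percentages count single windows. The gene counts and the percentages are therefore not directly comparable. Motifs of the 2 families can share bases where they adjoin, and each was counted on its own. A match describes the sequence only.

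**Figure D2:**
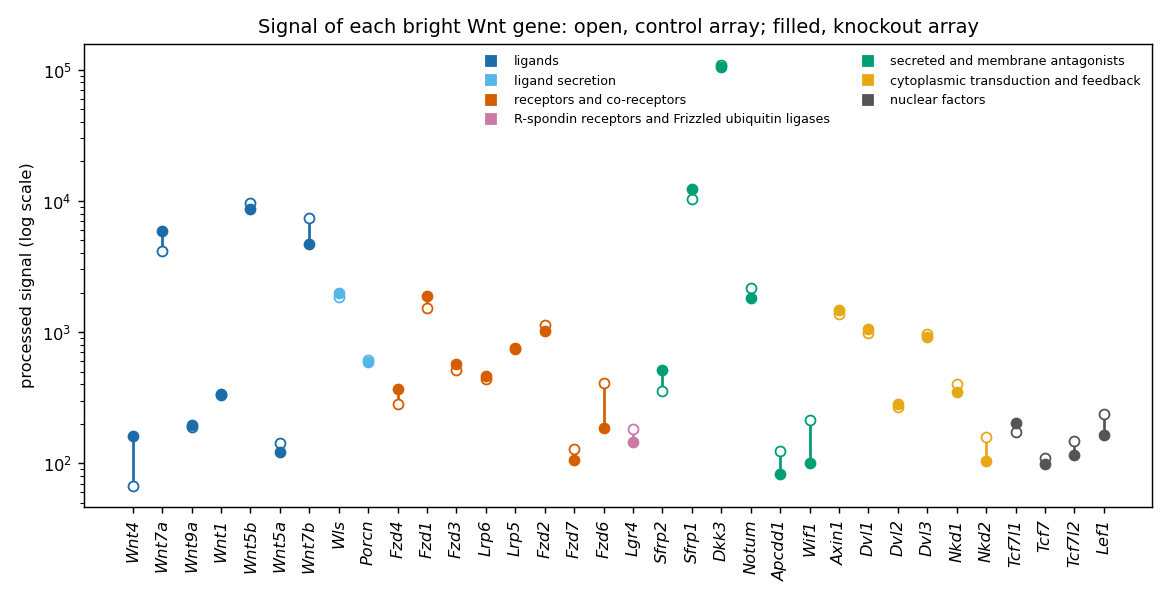
Processed signal on a log axis for each of the 34 Wnt genes with a mean signal of 100 or more, ordered by role, with the control array as an open circle, the knockout array as a filled circle and a line joining them. Fzd6 runs from 409 down to 184 and Wif1 from 214 down to 101, whereas Wnt7a and Wnt7b run in opposite directions; heights of different genes are not comparable because their probes differ.

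Ligands were led by a contrast between the closely related genes Wnt7a and Wnt7b. Wnt7a, a ligand with roles in epithelia and neurons, read 4169.6 in control and 5886 in knockout lens, a log2 difference of 0.51 with a spot SD of 0.08. Wnt7b, known in the eye as a macrophage signal for the loss of hyaloid vessels, read 7384 and 4697, a difference of -0.64 with the same spot SD of 0.08. Neither passed 2-fold, and they lay on opposite sides of 0. The Wnt7a difference exceeded the Wnt7b difference by 1.15 (log2). This pair was singled out with its values known, and no share of all gene pairs was counted. The 2-fold rule was set for single genes and was not applied to this gap. The gap was 1.15 after loess and after quantile normalization and 0.99 after normexp correction; the other 4 settings cannot change it, since they shift both genes alike or leave single-probe genes as they are. Csf1r and Adgre1, the macrophage markers measured here, differed by -0.14 and -0.40, and their part in the Wnt7b reading was not tested. Among all 10711 genes of the class, 590 read as high as Wnt7a or higher and 384 read as low as Wnt7b or lower.

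Wnt5b, a ligand of the non-canonical branch, read 9658 and 8601, a difference of -0.15. Its relative Wnt5a, the best known non-canonical ligand, read 141 and 123, a difference of -0.19. Both were close to equal on the arrays. Wnt9a read 188 and 195 (0.07), and Wnt1, known for its role in the midbrain, read 339.7 and 329.96 (-0.03) with its brighter probe. The second Wnt1 probe, at 6.29 and 3.17, was not well above background. The Wnt1 value therefore rests on 1 of 2 probes.

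Wnt4, a ligand of kidney and gonad development, gave no settled direction because its probes disagreed. One probe read 85.7 in control and 284 in knockout lens, a difference of 1.74. The other read 49.0 and 36.9, a difference of -0.40. The mean of 0.67 therefore describes neither probe. All genes with mean signals under 50, where the dimmer probe lay, had a median of -0.54. The Wnt4 value was past 2-fold after loess (1.05), after quantile normalization (1.28), with array medians (1.75) and with the brightest probe alone (1.74).

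Ligand secretion read nearly the same in both lenses. Wls, the carrier that takes Wnt proteins to the cell surface, read 1857 and 1988, a difference of 0.11. Porcn, the enzyme that attaches their lipid, read 617 and 593, a difference of -0.05. Their spot SDs were 0.11 and 0.12, about as large as the differences or larger.

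Among receptors, Fzd6 stood lowest. Fzd6, a Frizzled known for planar polarity in skin and hair, read 409 in control and 184 in knockout lens. This was 2.20-fold lower, a log2 difference of -1.14 with a spot SD of 0.13, from a single probe. Of the 10711 genes of the class, 91 read as low or lower, Fzd6 included. Spike-ins with control signals of 285 and 567 lay on either side of the Fzd6 control reading and differed by -0.11 and -0.19. The Fzd6 knockout reading lay below both of them, in the gap down to the spike-in that read 37.6 there and differed by -1.12. The Fzd6 difference was -1.13 after loess, -1.14 after quantile normalization, -0.89 after normexp correction and -0.06 with array medians.

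The other Frizzleds of the brighter class lay between -0.29 and 0.39. Fzd4, a receptor for norrin in eye vessels, read 282 and 366 (0.39), and Fzd1 read 1518 and 1870.5 (0.31). Fzd3, which acts with Fzd6 in planar polarity, read 512 and 572 (0.17). These 3 lay above 0 with spot SDs of 0.13, 0.11 and 0.12. After normexp correction they read 0.10, 0.31 and 0.10, and after quantile normalization 0.36, 0.19 and 0.10. Fzd2 read 1126 and 1017 (-0.13) with its brighter probe, and Fzd7 read 129 and 105 (-0.29). The co-receptors were level. Lrp5 read 753 and 742 (-0.01), and the 2 probes of Lrp6 read 762 against 817.2 (0.11) and 120.5 against 109.5 (-0.12). Over the 8 brighter receptors and co-receptors the median was -0.01, with 3 above and 5 below 0.

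**Figure D3:**
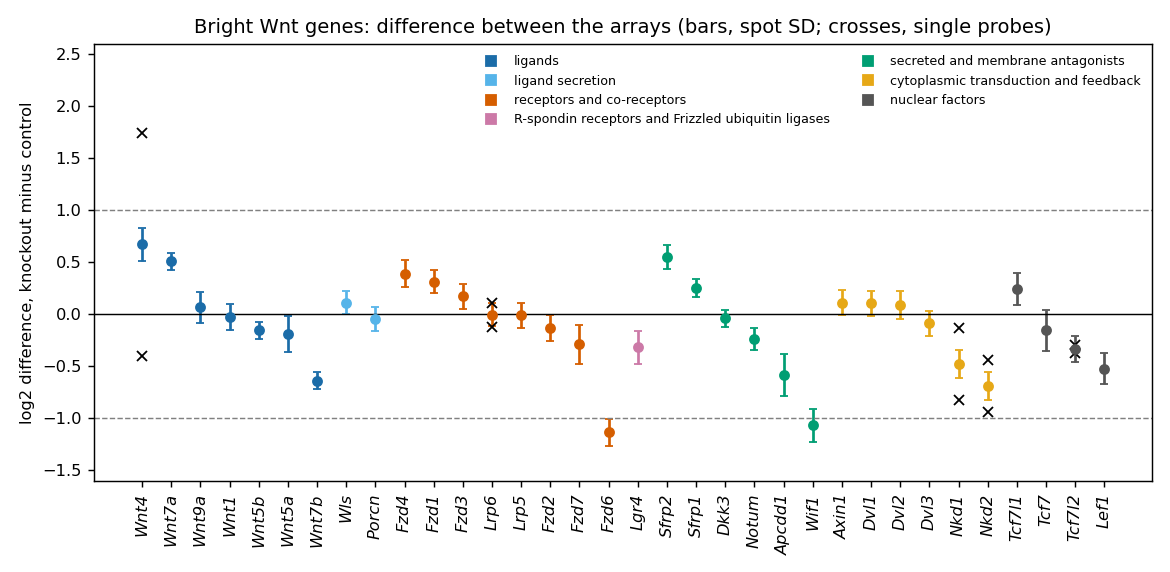
Log2 difference (knockout minus control) of each of the 34 brighter Wnt genes by role, with bars for the spot SD and crosses for the single probes of genes read by several. Dashed lines mark 2-fold; Fzd6 and Wif1 lie below -1, Wnt7a at 0.51 and Wnt7b at -0.64 lie apart, and the crosses of Wnt4 lie at 1.74 and -0.40.

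Antagonists split in direction. Wif1, a secreted protein that binds Wnt ligands directly, read 214 in control and 101 in knockout lens, 2.10-fold lower, a log2 difference of -1.07 with a spot SD of 0.16. It was read by 1 probe, and 109 of the 10711 genes of the class were as low or lower. Of the 1777 genes with mean signals of 100 to 200, 66 were at least 2-fold lower, Wif1 included. Its signals lie between those of the spike-ins that read -1.12 and -0.11. The difference was -0.95 after loess, -0.92 after quantile normalization, -0.78 after normexp correction and 0.011 with array medians.

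The brighter secreted Frizzled-related proteins, which hold a Frizzled-like domain that binds Wnt, lay on the other side of 0. Sfrp2 read 354 and 512, a difference of 0.55 with a spot SD of 0.12. Sfrp1 read 10398 and 12289, a difference of 0.25 with a spot SD of 0.08. After normexp correction Sfrp2 read 0.39 and Sfrp1 -0.09. Dkk3, a divergent Dickkopf protein, was level at 108710 and 104820 (-0.04). Notum, an enzyme that removes the lipid from Wnt proteins, read 2161 and 1816 (-0.24). Apcdd1, a membrane inhibitor, read 124 and 82.2 (-0.58), with a spot SD of 0.20.

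The R-spondin receptors and the ubiquitin ligases that clear Frizzled from the surface were mostly dim. Lgr4, the one brighter member, read 182 and 145 (-0.32). Znrf3 read 122 and 49.5, 2.45-fold lower with a difference of -1.29 and a spot SD of 0.22. Rnf43, its relative, read 42.2 and 23.9 (-0.80), and Lgr5, a stem cell marker, read 33.9 and 60.3 (0.85). Lgr5 and Fzd10, at 0.01, were the dim Wnt genes above 0, and 71 of the 3543 dim genes read as high as Lgr5 or higher.

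The brighter cytoplasmic transducers, Dvl1, Dvl2, Dvl3 and Axin1, were level. Apc, a dim member of this group, averaged -1.09 over 2 probes that disagreed (0.28 and -2.45). Dvl1, Dvl2 and Dvl3, the scaffold proteins that relay Frizzled signals, differed by 0.11, 0.09 and -0.09. Their control signals were 988, 266 and 975, and their knockout signals were 1053, 280.5 and 909.7. Axin1, the scaffold of the destruction complex, read 1363 and 1460.5 (0.11). The feedback inhibitors Nkd1 and Nkd2, which bind Dishevelled, both lay below 0. The brighter Nkd1 probe read 711 and 644 (-0.13) and the dimmer one 89.9 and 50.4 (-0.82). The Nkd2 probes read 209 against 153 (-0.44) and 105 against 54.6 (-0.94). In both genes the dimmer probe gave the lower difference. Axin2, a common readout of canonical signalling, was not well above background on either array with either of its 2 probes.

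Of the 5 nuclear factors, 4 were in the brighter class and lay between -0.52 and 0.24, and the dim Sp5 was 2.32-fold lower (-1.22). Lef1, a beta-catenin partner that is also a target of the pathway, read 238 and 164, a difference of -0.52 with a spot SD of 0.15. The 2 measured probes of Tcf7l2 read 110.1 against 88.8 (-0.30) and 187 against 143 (-0.37), so they gave like values. Tcf7 read 110.4 and 98.3 (-0.16) with a spot SD of 0.20, and its second probe was not well above background. The Tcf7 value was 0.05 after loess and 0.12 after quantile normalization, so its sign is not settled. Tcf7l1, which acts mainly as a repressor, read 174 and 204 (0.24) and was the one factor above 0 under the reported scaling.

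The 12 dim genes lay low as a class, as did dim genes in general. Their median difference was -0.80, against -0.39 for all 3543 dim genes. Below 0 were 10 of 12, as were 2724 of the 3543. At least 2-fold lower were 4 of 12 (33.3%), against 20% of all dim genes, and 0 were at least 2-fold higher, against 1.07%. The 4 were Wnt16, Znrf3, Sp5 and Apc. Fzd5, Fzd8, Fzd9, Wnt9b and Wnt11 lay between -0.85 and -0.29, and Rnf43, Lgr5 and Fzd10 are given above. Wnt16 had 2 probes at -2.38 and -0.72, and Sp5 read 44.5 and 19.0 (-1.22). The 2 probes of Apc disagreed at 0.28 and -2.45. The median of the 12 moved to -0.18 after loess and 0.048 after quantile normalization, with 0 of 12 at least 2-fold lower in each case. All dim genes then had medians of 0.19 and 0.41, with 5.53% and 3.98% at least 2-fold lower.

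Of the 14 remaining genes, 5 were well above background on the control array only, namely Lgr6, Sfrp5, Wnt10a, Wnt2 and Wnt8b. Their bounds ran from at least 2.13-fold to at least 2.94-fold lower, so 5 of 5 passed 2-fold. Of all genes seen on the control array alone, 92.9% passed in the same way. Each bound is the bright signal over the higher of 2 values from the other array, the probe's own signal and the smallest one flagged as well above background there (20.6 for control, 12.1 for knockout). On the knockout array only, Wnt3 was at least 1.71-fold higher and Dkk1 at least 1.18-fold higher, and Dkk2 had no bound above 1. None of the 3 passed 2-fold (0 of 3), against 6.36% of all such genes. The last 6, Axin2, Sfrp4, Wnt2b, Wnt3a, Wnt6 and Wnt10b, were not well above background on either array. Wnt genes often lie in adjacent pairs, and 4 such pairs, Wnt6 with Wnt10a, Wnt3a with Wnt9a, Wnt9b with Wnt3, and Wnt10b with Wnt1, were neighbours in the GRCm38.p6 annotation. In 0 of the 4 pairs were both genes measured on both arrays.

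Agreement between probes could be checked for 8 of the 46 measured genes, and the other 38 rested on 1 measured probe. In 5 of the 8 all probes had the same sign. The gap between the probes of a gene ran from 0.08 for Tcf7l2 to 2.73 for Apc.

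**Figure D4:**
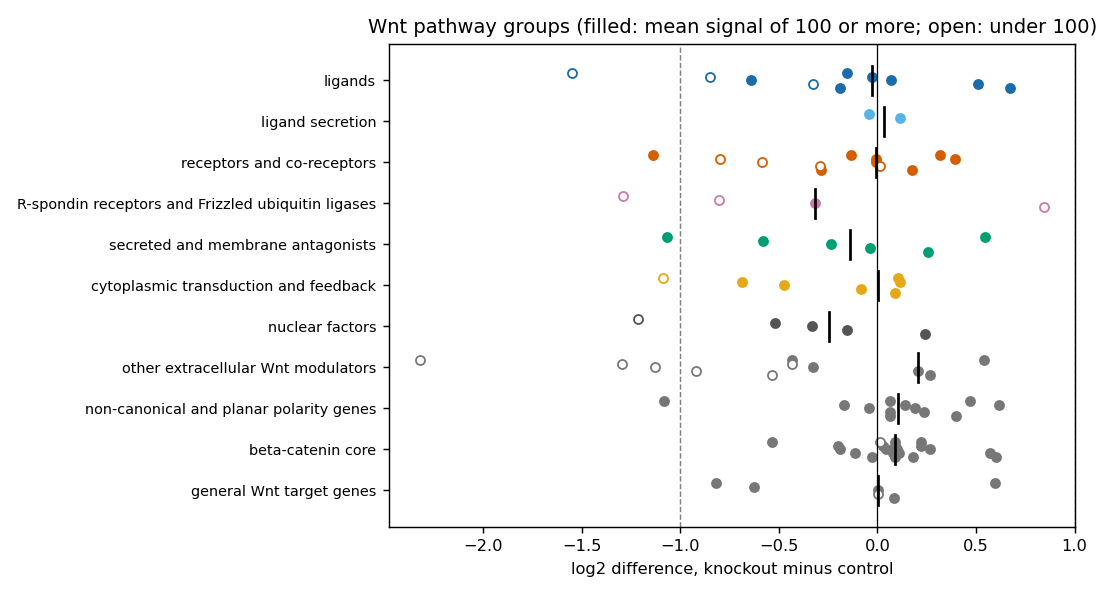
Log2 difference (knockout minus control) of each measured gene in the 7 role groups and 4 further Wnt pathway lists, with filled points for a mean signal of 100 or more, open points below it and a black bar at the median of the filled points. The beta-catenin core and planar polarity lists sit slightly above 0, and open points lie mostly to the left. All genes with a mean signal of 100 or more had a median of 0.05.

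Further genes of the pathway were examined in 4 lists of 62 genes in all, of which 41 belonged to the brighter class. Of these 41, 1 was at least 2-fold lower and 0 higher by that much, against 1.19% and 1.01% of all 10711 genes of the class. Their median was 0.09, against 0.05 for all genes of the class. The beta-catenin core held 19 brighter genes with a median of 0.09, 14 of them above 0, as were 6438 of all 10711 genes of the class. Ctnnb1, beta-catenin itself, read 7594 and 7659 (0.03). Tnks2, a tankyrase that marks Axin for removal, lay highest at 0.60, and its 2 probes read 0.41 and 0.80. Apc2 lay at 0.57, the coactivator Bcl9l at -0.54 and the corepressor Tle1 at 0.27.

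Of the 12 brighter genes of the non-canonical and planar polarity list, 9 lay above 0, as did 6438 of all 10711 genes of the class, and 1 was at least 2-fold lower, against 1.19%. This was Ror2, a receptor tyrosine kinase for Wnt5a, which read 168 and 78.5, a difference of -1.08 with a spot SD of 0.18. At mean signals of 100 to 200, where Ror2 lay, 3.71% of all genes were at least 2-fold lower. Its signals lie between those of the spike-ins that read -1.12 and -0.11. Vangl1, a core planar polarity protein, lay at 0.62 with probes at 0.36 and 0.88, and Celsr3 and Daam2 lay at 0.47 and 0.40. The list as a whole did not share the direction of Fzd6 and Ror2, and its median was 0.10.

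Among other extracellular modulators 5 were bright, with a median of 0.20 and 0 past 2-fold. Gpc3, a surface proteoglycan, lay at 0.54, Sostdc1, a secreted antagonist, at -0.43, and Tspan12, a partner of Fzd4, at 0.26. The 2 probes of Kremen1, a Dickkopf receptor, disagreed at -0.86 and 0.21. Of the 6 dim genes of this list 3 were at least 2-fold lower, against 20% of all dim genes, and 0 higher. The 3 were Frzb, a secreted Frizzled-related protein, at -2.32 (148 and 29.5), Dkk4 at -1.30 and Kremen2 at -1.13, named here after their values were seen. General target genes gave no common direction, with a median of 0.0031 over 5 brighter genes. Tnfrsf19 and Cd44 lay at -0.82 and -0.63, Ccnd1, cyclin D1, at 0.59, and Jun at 0.08. The 2 probes of Tnfrsf19 lay apart at -1.42 and -0.21, and those of Cd44 read -0.86 and -0.39.

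Markers of the cells that a dissected lens can carry were set beside these values. All 6 lens epithelium markers and all 6 lens fibre markers were measured, with medians of -0.01 and -0.04 and 0 past 2-fold. The epithelium markers ran from -0.70 (Gja1) to 0.34 (Foxe3), with 3 below 0 and 3 above. The fibre markers ran from -0.25 to 0.04. All 10 retina markers lay above 0, with a median of 0.52, 1 past 2-fold and summed signals of 6129.9 for control and 8307 for knockout. All but Isl1 were in the brighter class, where 6438 of 10711 genes lay above 0 and 1.01% were at least 2-fold higher. Of 7 mesenchyme markers 4 were measured, 2 of them at least 2-fold higher, with summed signals of 976 and 1128, while Dcn and Lum were above background on the knockout array only and Twist1 on the control array only. The higher ones were Col1a1 and Col3a1, both dim, and 1.07% of all dim genes were at least 2-fold higher. Ciliary and pigment epithelium markers lay below 0 in 5 of 5 measured cases, with a median of -0.37 and summed signals of 3655 and 3152. All 5 were in the brighter class, where 4273 of 10711 genes lay below 0. Vessel and macrophage markers had 7 measured, with a median of -0.22 and sums of 2013 and 1829. Of these 1, a dim gene, was at least 2-fold lower, against 20% of all dim genes. Surface ectoderm markers had 4 measured, with a median of -0.24 and sums of 1749 and 1877. Each sum follows the brightest genes of its list. Trp63 (1587 and 1753) made up most of the surface ectoderm sum, although 3 of these 4 genes lay below 0. Pdgfra (725 and 709) made up most of the mesenchyme sum. Rpe65 and Krt12, which define pigment epithelium and cornea, were not well above background on either array. The part of these cells in the differences of Sfrp2, Wnt7a, Wif1 or any other Wnt gene was not tested.

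**Figure D5:**
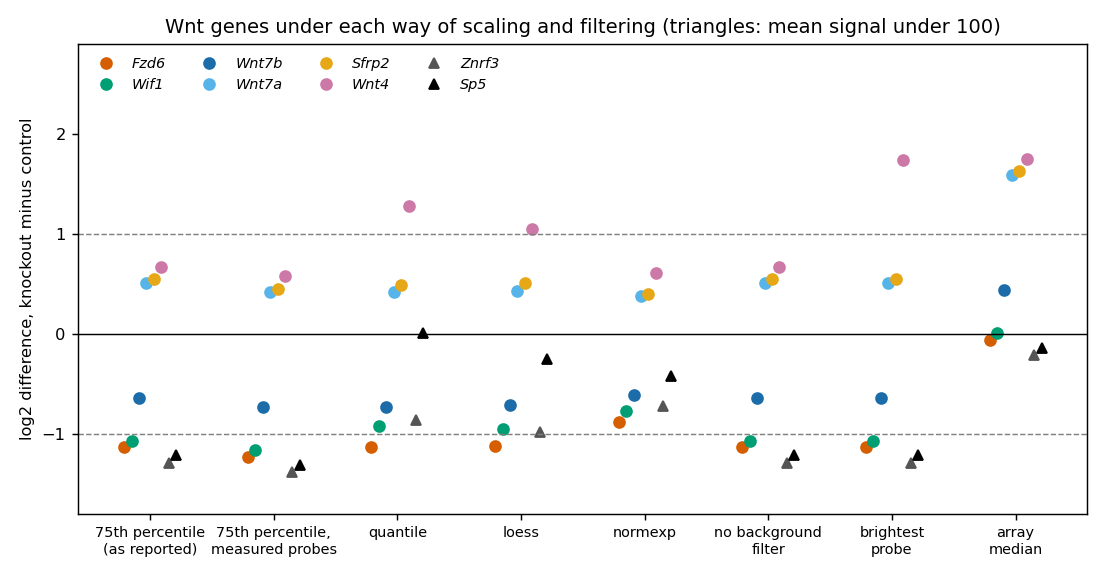
Log2 difference (knockout minus control) of 8 Wnt genes under the reported scaling and 7 alternatives, with circles for genes with a mean signal of 100 or more and triangles for dimmer ones. Fzd6 stays near -1 except with array medians, where all genes sit 1.08 higher, and Sp5 runs from -1.31 to 0.0094 across the settings.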

How the data were processed

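Processed signals are intensities on a linear scale, which the authors deposited for each array as scanner files. They came, per the file headers, from Agilent Feature Extraction 10.7.3.1 with a layout annotated to mm9, and no scaling between arrays is recorded. The background flags are the deposited yes or no values of the same software. Spots flagged as outliers were left out, each array was scaled to its 75th percentile on the log2 scale, and the spots of each probe were averaged. Probes with over 50% of spots flagged well above background, on each array, counted as measured, and a gene's value is the mean over its measured probes. Probes were named through unversioned RefSeq accessions (GRCm38.p6), giving a symbol to 27225 of 55655 probes and naming 20655 genes. Both arrays measured 14254 of them. Spot noise came from 281 probes in 5 signal classes, with a pooled SD of 0.17.

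Depth does not apply to arrays, and their number limits the precision. Values are given for each Wnt gene measured with a mean signal of 100 or more and each one past 2-fold, and the rest by range and counts. Of each further list the 4 brighter genes with the largest differences are named. The members and lists were chosen with earlier results of these data known. Alternatives were array medians, the 75th percentile over measured probes, quantile normalization, loess and normexp (limma 3.58.1 in R 4.3.3, offset 50, on the median spot signals and local backgrounds), no background filter, the brightest probe, and signal boundaries of 50 and 200. The steps were tested on simulated data.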

Additional observations from a re-analysis of the deposited data

How the results depend on the processing

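No paired analysis was possible because each genotype had 1 array, and for the same reason no array could be left out. Array medians raised every gene by 1.08 and gave, for the 34 brighter Wnt genes, a median of 1.04 with 18 at least 2-fold higher (72.1% of all brighter genes were) and 0 lower, and for the 12 dim genes a median of 0.28 with 2 higher (28.2% of all dim genes were) and 0 lower; Wif1 then read 0.011. Quantile normalization gave 1 higher and 1 lower among the brighter genes, against 1.25% and 0.859% of all brighter genes. Among the dim ones it gave a median of 0.048, against 0.41 for all dim genes, with Sp5 at 0.0094. Of these dim ones 2 were higher and 0 lower, against 18.1% and 3.98% of all dim genes. Loess gave 1 higher and 1 lower among the brighter genes, against 1.14% and 0.878% of all brighter genes. Among the dim genes it gave a median of -0.18, against 0.19 for all dim genes. There 1 was higher and 0 lower, against 7.99% and 5.53% of all dim genes. Normexp left 0 brighter genes and 0 dim genes at least 2-fold lower, against 0.513% and 1.27% of all genes of these classes. The dim median was then -0.34, against -0.19 for all dim genes. Without a filter on background 12 of 29 dim genes were at least 2-fold lower, against 42% of all dim genes in that setting. The brightest probe gave 1 higher brighter gene, Wnt4, against 1.1% of all brighter genes, and turned Apc to 0.28. A boundary of 50 gave 4 lower among 37 brighter genes, against 3.1% of all, and 2 lower among 9 dim ones, against 25.5%. A boundary of 200 gave 1 lower among 23 brighter genes, against 0.683% of all, and a dim median of -0.33, against -0.26. Apart from shifts made by the boundary or filter itself, the cause was not tested. Apart from array medians and the boundaries, the median of the brighter genes lay between -0.14 and -0.01, against -0.04 as reported.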
